A study of Drosophila melanogaster with 9 samples.

Results

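Mitochondrial ribosomal protein genes encode, in the nucleus, the protein part of the ribosome that works inside mitochondria. They were taken here as every gene whose symbol starts with mRpL (named for the large subunit) or mRpS (named for the small subunit) and whose mean over the 9 libraries was at least 10 normalized counts. This gave 72 genes of 73 with such a symbol, out of 15334 genes in the matrix, and all 72 were among the 8346 genes tested. The proteins are made in the cytoplasm, imported into mitochondria and assembled there on ribosomal RNAs that the mitochondrial genome encodes. The finished particle translates the few messenger RNAs of that genome, which encode core subunits of the respiratory chain and of ATP synthase. Fly eggs are loaded with maternal RNA and mitochondria, and in early embryos nuclear genes for mitochondrial ribosomal proteins are known to be represented by RNA laid down in the egg.

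RNA was sequenced from Drosophila melanogaster embryos of 3 genotypes, with 3 libraries each. OreR is the Oregon-R wild-type strain. The embryos called obe1/obe2 were the progeny of obe1/obe2 transheterozygous mothers crossed with obe2/+ fathers, and those called obe2/Df were the progeny of obe2/Df mothers crossed with obe2/+ fathers. Both mutant groups therefore share the obe2 allele, a paternal chromosome that is obe2 or +, and embryos of mixed zygotic genotype and sex. The gene obe (CG5205, obelus) encodes a Ski2-family RNA helicase on chromosome arm 3R. The lesions, the extent of the deficiency Df and the strain backgrounds were not given in the sources used here, so genotype and strain background cannot be told apart. Each library came from about 50 hand-picked embryos aged 3 h at 25 °C, between late stage 5 and early stage 6, when the blastoderm has become cellular and gastrulation starts. RNA was isolated in triplicate, and whether the triplicates were separate crosses is not stated. A p-value here therefore measures the variation among these libraries, part of which may be technical. In whole embryos, fewer cells of a type and less RNA per cell cannot be told apart.

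Recovered reads ranged from 61007517 to 123121486 per library, and the 72 genes took 0.225% to 0.291% of them. The targeted gene obe followed the labels, with 5850.1, 8562 and 6755 normalized counts in the OreR libraries, 821, 672 and 698 in the obe1/obe2 libraries and 277, 245 and 183 in the obe2/Df libraries. Genes switched on early in the zygote (16 genes, among them Kr, eve, ftz and sna) differed between the groups given the same stage label. Their summed normalized counts were 269454, 180137 and 185078 in the OreR libraries, 107538, 244541 and 110456 in the obe1/obe2 libraries and 20458, 37478 and 33881 in the obe2/Df libraries. All 16 were called lower in obe2/Df and 0 in obe1/obe2 by the test described next. The part of this difference in the results that follow was not tested, and its values by library are set beside them below. Markers of later or carried-over cell types were few: 2 of 4 hemocyte genes found, 2 of 5 muscle genes, 2 of 4 neuron genes, 1 of 5 adult or egg chamber genes and 2 of 4 larval fat body genes reached the minimum mean. The summed hemocyte genes stood at 14298, 14779 and 14966 normalized counts in the OreR libraries, 13847, 9164 and 9993 in the obe1/obe2 libraries and 16605, 14992 and 19731 in the obe2/Df libraries. The larval fat body genes summed to 65.9, 32.1 and 40.6 in the OreR libraries, 504, 477 and 338 in the obe1/obe2 libraries and 154, 98.9 and 119 in the obe2/Df libraries, with no overlap between the groups. Lsp1gamma, a larval serum protein gene, was called higher in obe1/obe2 (4.49 ± 0.44, adjusted p = 0.000192, limma) and in obe2/Df (2.69 ± 0.44, adjusted p = 0.00132, limma), and Lsp1beta lower in obe2/Df (-4.27 ± 0.60, adjusted p = 0.000704, limma). The neuron genes summed to 119 to 593 in OreR, 167 to 394 in obe1/obe2 and 78.8 to 354 in obe2/Df, and cpx, a synaptic gene, was called higher in both mutant groups (4.26 and 3.42). The 2 tested neuron genes did not move together, so the rise of cpx does not stand for both. The SD over them of the log2 difference from the OreR mean was 4.12, 3.17 and 3.59 in the obe1/obe2 libraries. In the obe2/Df libraries it was 4.78, 2.59 and 2.57. The muscle genes summed to 20.3 to 38.2 in OreR, 23 to 34 in obe1/obe2 and 8.47 to 12.8 in obe2/Df, with the troponin gene up called lower in obe2/Df (-1.77), and the adult or egg chamber genes to at most 34.8 in any library. The hemocyte marker He was at 0 in all 9 libraries. The part of these markers in the results was not tested.

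Values by library are given in the order of replicates 1 to 3. Levels are given in normalized counts, that is read counts per gene divided by a size factor per library, and as mean ± SD over 3 libraries. To compare levels between genes they were divided by exonic length in kilobases (kb). Differences between genotypes are log2 fold changes on the log2(normalized count + 1) scale ± SE from limma, and a gene is called higher or lower where the Benjamini-Hochberg adjusted p over the 8346 tested genes is under 0.05.

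In OreR embryos the 72 genes spanned a wide range. The median level was 3383 normalized counts per kb. The highest was mRpS7, a protein of the small subunit head, at 9358 ± 978 per kb (SD, n = 3). It was followed by mRpL12, the stalk protein that contacts translation factors, at 8166 ± 860.2, mRpS30 at 7458 ± 217 and mRpL39 at 7034 ± 555. The libraries of mRpS7 and mRpL12 overlapped: mRpS7 ranged from 8229 to 9966 per kb and mRpL12 from 7494 to 9136. At the low end stood mRpL38 at 565 ± 162 per kb, mRpL43 at 556 ± 67.7, mRpS25 at 519 ± 103 and mRpL47 at 38.4 ± 7.34. The first 3 of these overlapped in their libraries, whereas mRpL47, the counterpart of bacterial L29 at the rim of the peptide exit tunnel, was far below every other member. The coefficient of variation of a gene over the 3 OreR libraries ran from 2.91% to 29.7%, with a median of 9.36%.

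The threshold on the mean separated 2 genes. mRpL47 was the lowest gene inside it, at 42.3, 32.1 and 29.8 normalized counts in OreR replicates 1 to 3. mRpL53 was outside it and stood at 0 in all 9 libraries, which allows up to 3 reads per library for counting error only. In the reference annotation 100% of the exonic length of mRpL53 is shared with other genes, CG33155 on the same strand and AGO1 on the opposite strand. The part of this overlap in the 0 was not tested, so the 0 does not show that the RNA was absent.

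The comparison of obe2/Df with OreR embryos asks how the transcriptome differs where mothers carried obe2 over the deficiency. In obe2/Df embryos 23 of the 72 genes were higher and 17 lower than in OreR, and 32 were not called. Over all tested genes, 60.5% were called, 31.0% higher and 29.5% lower. The members' shares of 55.6%, 31.9% and 23.6% were thus near the background, and the number called is not a result about these genes. Their median log2 fold change was 0.021, against -0.0083 over all tested genes. The split depended on the scaling: with quantile normalization 15 were higher and 28 lower, and the median was -0.21. Here and below, the shares over all tested genes are those of the fit without quantile normalization. Counts with quantile normalization have no such share beside them. They show that calls depend on the scaling, and not whether the members moved apart from other genes. Without obe2/Df replicate 1 the lower genes numbered 11 and the higher ones 22.

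The summed level of the 72 genes was 220259.8, 192087 and 220215 normalized counts in the OreR libraries, 204848, 208712 and 214679 in the obe1/obe2 libraries and 207522, 219323 and 220702 in the obe2/Df libraries, and the 3 groups overlapped. What differed was the balance among the genes, which the map of all 72 genes by library shows. The genes at the top of the map were higher in all 3 obe2/Df libraries than in OreR, and the genes at its foot were lower.

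**Figure D1:**
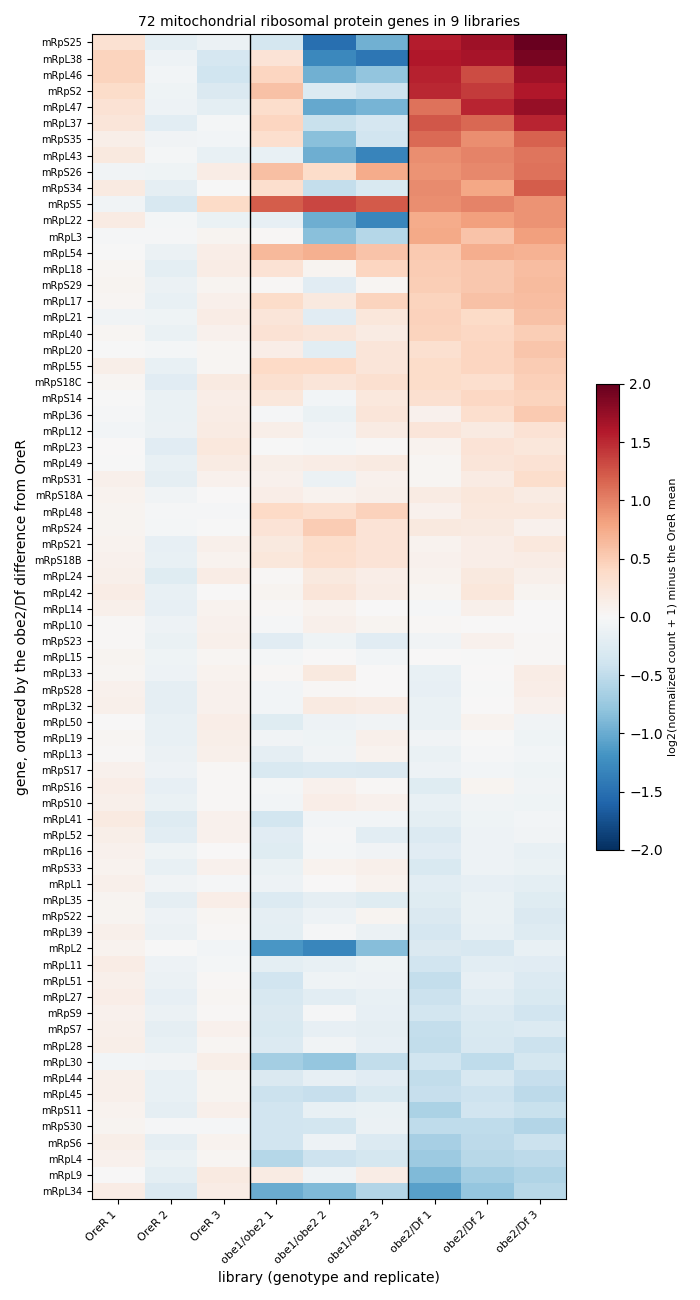
Each row is a mitochondrial ribosomal protein gene and each column a library, and colour gives log2(normalized count + 1) minus the mean of the 3 OreR libraries (red higher, blue lower, scale from -2.0 to 2.0). Rows are ordered by the obe2/Df difference, from mRpS25 (1.75) to mRpL34 (-0.80), and vertical lines separate the genotypes.

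Of the 72 genes, 8 were at least 2-fold higher in obe2/Df than in OreR and 0 were at least 2-fold lower. Over all tested genes 15.2% were called and at least 2-fold higher, so 8 of 72 is no larger a share. The corresponding background for 2-fold falls was 7.54%. Without regard to the test, the obe2/Df libraries lay entirely above the OreR libraries in 28 members and entirely below them in 20, where 36.2% and 34.3% of all tested genes did. The 8 genes were mRpS25, mRpL38, mRpL46, mRpS2, mRpL47, mRpL37, mRpS35 and mRpL43. All 8 were called higher under TMM scaling and under quantile normalization too. Their products sit in both subunits. Apart from mRpS2 and mRpL47, which have bacterial counterparts, they are proteins that mitochondrial ribosomes gained and bacterial ribosomes lack.

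mRpS25 had 408, 287 and 303 normalized counts in the OreR libraries, 258, 115 and 168 in the obe1/obe2 libraries and 975, 1061 and 1301 in the obe2/Df libraries. The obe2/Df libraries were above every other library, and the obe1/obe2 libraries were below every OreR library. mRpS25, a mitochondria-specific small subunit protein, rose 3.35-fold in obe2/Df (log2 fold change 1.75 ± 0.30, limma adjusted p = 0.0016). mRpL38 had 1045, 717 and 609 normalized counts in the OreR libraries, 931, 315 and 284 in the obe1/obe2 libraries and 2326, 2413 and 2863 in the obe2/Df libraries. Here obe1/obe2 replicate 1 lay among the OreR libraries and the other obe1/obe2 libraries lay below them, while the 3 obe2/Df libraries were again highest. mRpL38, a protein of the central protuberance at the top of the large subunit, rose 3.27-fold (log2 fold change 1.71 ± 0.42, limma adjusted p = 0.00768).

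mRpL46 had 864, 614 and 482 normalized counts in the OreR libraries, 856, 326 and 368 in the obe1/obe2 libraries and 1854, 1568 and 2065 in the obe2/Df libraries. mRpS2 had 796, 582 and 507 normalized counts in the OreR libraries, 927, 509 and 461 in the obe1/obe2 libraries and 1761, 1632 and 1866 in the obe2/Df libraries. In both genes the obe2/Df libraries stood apart above the other 6, which overlapped. The log2 fold change of mRpL46, another central protuberance protein, was 1.52 ± 0.36, adjusted p = 0.00702. That of mRpS2, a small subunit protein shared with bacteria, was 1.5 ± 0.27, adjusted p = 0.00211. mRpL47, the rarest member, stood at 44, 16.5 and 17.6 normalized counts in the obe1/obe2 libraries and 74.2, 100.2 and 118 in the obe2/Df libraries, beside its OreR values above. Its obe2/Df libraries did not overlap the others, and its log2 fold change was 1.45 ± 0.42, adjusted p = 0.0156, but without obe2/Df replicate 3 it was 1.30, adjusted p = 0.054.

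mRpL37 had 1313, 952 and 1082 normalized counts in the OreR libraries, 1485, 813 and 877 in the obe1/obe2 libraries and 2630.3, 2450.3 and 3183 in the obe2/Df libraries. mRpS35 had 1333, 1177 and 1189 normalized counts in the OreR libraries, 1558, 692 and 943 in the obe1/obe2 libraries and 2703, 2353 and 2795 in the obe2/Df libraries. mRpL43 had 494, 422 and 390.4 normalized counts in the OreR libraries, 389.6, 219 and 173 in the obe1/obe2 libraries and 828, 867 and 912 in the obe2/Df libraries. In each of these 3 genes the obe2/Df libraries were above all others. Their log2 fold changes were 1.31 ± 0.24, adjusted p = 0.00207 for mRpL37, 1.08 ± 0.25, adjusted p = 0.00645 for mRpS35, and 1.0 ± 0.28, adjusted p = 0.0133 for mRpL43. The plot of counts per library shows these 8 genes with 4 that behaved otherwise.

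**Figure D2:**
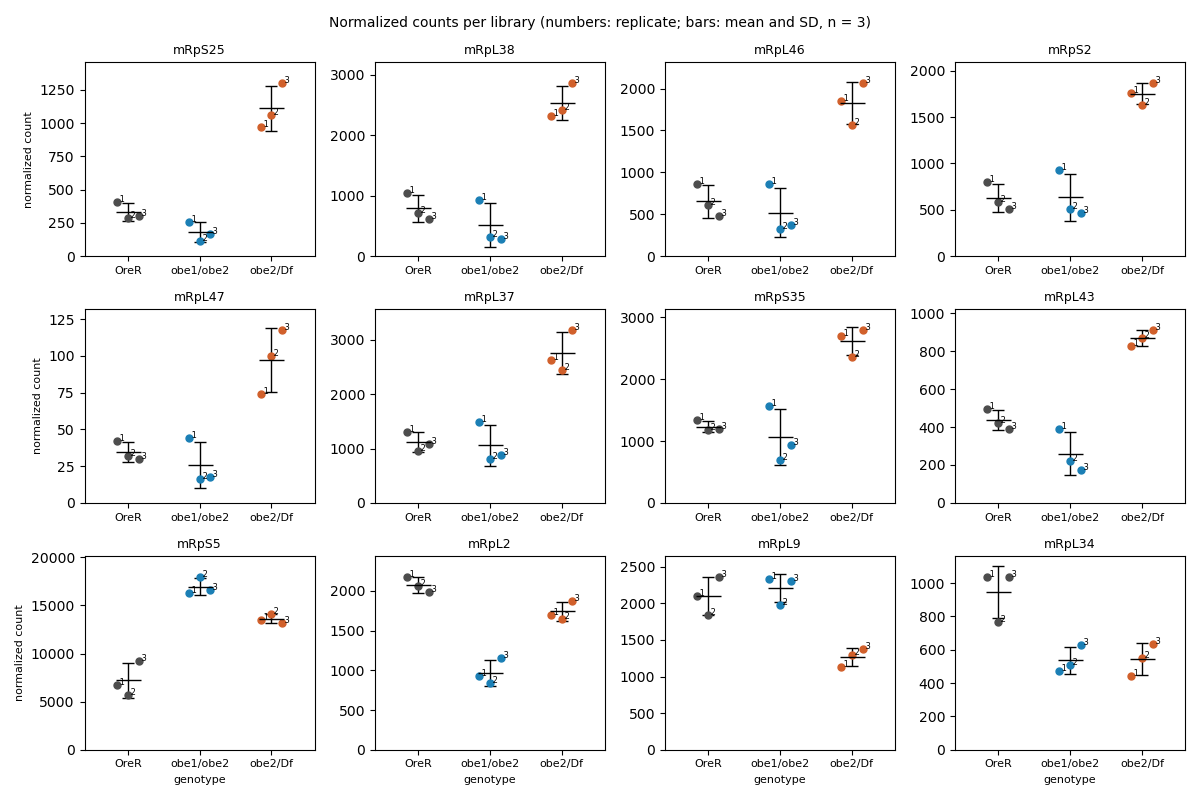
Each panel is a gene, the vertical axis is its normalized count from 0, points are single libraries numbered by replicate, and bars give mean and SD (n = 3). The upper 8 panels are the genes at least 2-fold higher in obe2/Df, where the obe2/Df points clear all others, and the lowest 4 panels show mRpS5, mRpL2, mRpL9 and mRpL34.

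The 8 genes were among the least abundant members. By level per kb in OreR they ranked from 63 to 72 of 72, where 72 is the lowest. Among the 12 genes lowest in OreR, 10 were higher and 0 lower in obe2/Df, with a median log2 fold change of 1.19. Among the 12 highest, 0 were higher and 8 lower, with a median of -0.30. Over all tested genes, of any level, 31.0% were higher and 29.5% lower. Other genes at similar OreR levels were not compared. The ranking and the fold change use the same OreR libraries, so these counts are a description. The spread of levels within a library needs no such ranking. The SD over the 72 genes of the log2 level per kb was 1.17, 1.22 and 1.29 in the OreR libraries, 1.16, 1.51 and 1.48 in the obe1/obe2 libraries and 0.907, 0.894 and 0.835 in the obe2/Df libraries. The levels of the 72 genes were thus closer together in each obe2/Df library than in any other library. The same spread is not given here for other genes, so whether it is particular to these 72 cannot be told. Without mRpL47 the SD was 0.949, 0.989 and 1.06 in the OreR libraries, 0.939, 1.27 and 1.24 in the obe1/obe2 libraries and 0.678, 0.696 and 0.638 in the obe2/Df libraries, again lowest in the 3 obe2/Df libraries.

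**Figure D3:**
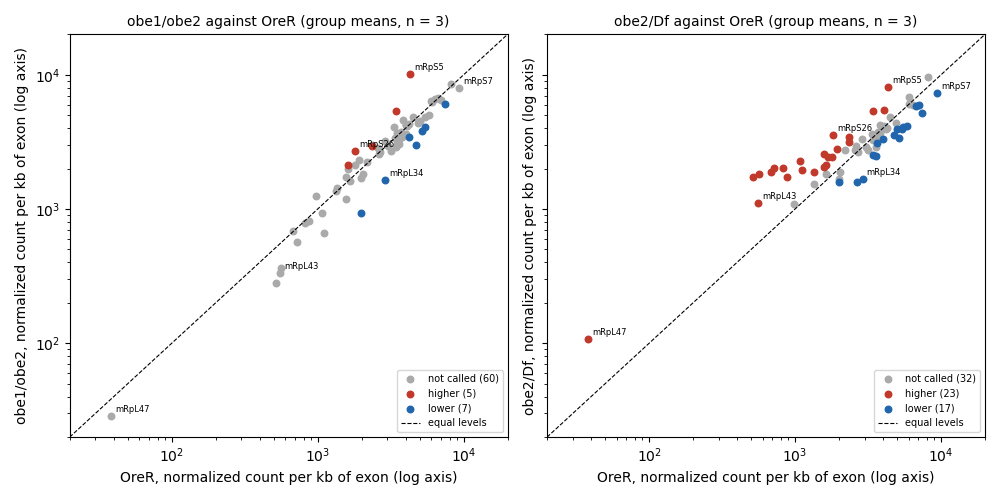
Each point is a gene, plotted by its mean normalized count per kb of exon in OreR (horizontal, log axis) and in obe1/obe2 (left) or obe2/Df (right, log axes, n = 3 per group), with red for called higher, blue for called lower and a dashed line at equal levels. In obe2/Df the 23 red points lie mostly at low OreR levels and the 17 blue points at high ones, and in obe1/obe2 only 12 points are coloured.

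The members were also read by role, in groups of few genes. For every role the background in obe2/Df was 31.0% higher and 29.5% lower over all tested genes, and no difference between roles was tested. Of the stalk and factor-binding proteins, 0 of 4 were higher and 2 were lower in obe2/Df: mRpL11 of the GTPase-associated centre (-0.27 ± 0.097, adjusted p = 0.0374, limma) and mRpL1 of the L1 stalk (-0.19 ± 0.073, adjusted p = 0.049, limma). mRpL12 (0.24) and mRpL10 (0.015) were not called. Of the 4 core proteins near the peptidyl transferase centre, where peptide bonds form, mRpL3 rose (0.72 ± 0.20, adjusted p = 0.0125, limma) and mRpL27 was lower (-0.31 ± 0.12, adjusted p = 0.0447, limma), while mRpL2 (-0.25) and mRpL16 (-0.16) were not called. With quantile normalization 1 of these 4 was higher and 3 were lower. The calls of mRpL1 and mRpL27 were lost without OreR replicate 1 or 3, obe1/obe2 replicate 2 or 3, or any obe2/Df library, and that of mRpL11 without OreR replicate 1 or 3, obe1/obe2 replicate 3, or any obe2/Df library. Without OreR replicate 1 the values were -0.14, adjusted p = 0.159 for mRpL1, -0.25, adjusted p = 0.145 for mRpL27 and -0.20, adjusted p = 0.131 for mRpL11 (limma).

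The 6 proteins of the exit tunnel, through which the new chain leaves, were split. mRpL22, which lines the tunnel, rose (0.82 ± 0.26, adjusted p = 0.0232, limma), as did mRpL47 above. mRpL22 lost its call without OreR replicate 2 or 3 or obe2/Df replicate 2 or 3, with 0.76, adjusted p = 0.069 without OreR replicate 3, and with quantile normalization, where its value was 0.48, adjusted p = 0.0526. mRpL4, which also lines it, fell (-0.60 ± 0.096, adjusted p = 0.00122, limma), and so did mRpL45 (-0.47 ± 0.087, adjusted p = 0.00232, limma), which in mammals faces the inner membrane. mRpL23 (0.19) and mRpL24 (0.12) at the tunnel rim were not called. The central protuberance had 4 of 5 genes higher and 0 lower: mRpL38 and mRpL46 above, mRpL18 (0.56 ± 0.13, adjusted p = 0.00711, limma) and mRpL40 (0.45 ± 0.10, adjusted p = 0.00596, limma). The fifth, mRpL48, had a log2 difference of 0.17 and was not called. Over all tested genes 31.0% were higher and 29.5% lower. With quantile normalization 2 of the 5 were higher and 0 lower.

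Among 5 small subunit proteins of the messenger RNA path and its GTPase, mRpS5 on the entry side rose. mRpS5 had 6760.2, 5709 and 9259 normalized counts in the OreR libraries, 16344, 17989 and 16582 in the obe1/obe2 libraries and 13504, 14134 and 13203 in the obe2/Df libraries. Both mutant groups were above every OreR library, and the log2 fold change in obe2/Df was 0.94 ± 0.15, adjusted p = 0.00126 (limma). mRpS29, the GTP-binding protein known as DAP3 in human, rose (0.55 ± 0.10, adjusted p = 0.00245, limma), and mRpS7 was lower (-0.35 ± 0.096, adjusted p = 0.0129, limma), though not called without obe2/Df replicate 1 (-0.29, adjusted p = 0.0521). mRpS24 (0.16), the counterpart of bacterial S3, and mRpS28 (-0.008), the counterpart of bacterial S1, were not called.

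By subunit, of 48 large subunit genes 14 were higher and 12 lower in obe2/Df, and of 24 small subunit genes 9 were higher and 5 lower. These counts place mRpS18A and mRpS30 with the large subunit, where their mammalian counterparts sit despite their names. Of 43 genes with a bacterial counterpart 11 were higher and 12 lower, and of 29 mitochondria-specific genes 12 were higher and 5 lower, where 31.0% of all tested genes were higher and 29.5% lower. These balances depended on the scaling. With quantile normalization the large subunit genes gave 8 higher and 20 lower and the small subunit genes 7 higher and 8 lower, and the genes with a bacterial counterpart gave 5 higher and 19 lower and the mitochondria-specific ones 10 higher and 9 lower. No difference between these classes was tested. By summed normalized counts, large subunit genes stood at 2.19, 2.26 and 2.13 times the small subunit genes in the OreR libraries, at 1.86, 1.77 and 1.88 times in the obe1/obe2 libraries and at 1.94, 1.93 and 1.93 times in the obe2/Df libraries. Every mutant library was below every OreR library in this ratio, but most of the gap came from the counts of mRpS5. Without mRpS5 the ratio was 2.43, 2.51 and 2.45 in the OreR libraries, 2.41, 2.33 and 2.42 in the obe1/obe2 libraries and 2.41, 2.38 and 2.34 in the obe2/Df libraries.

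The 8 largest falls in obe2/Df were smaller than the rises, and none reached 2-fold. mRpL34 had 1038, 768 and 1036 normalized counts in the OreR libraries, 473, 507 and 628 in the obe1/obe2 libraries and 443, 548 and 636 in the obe2/Df libraries. All 6 mutant libraries were below the 3 OreR libraries, and the log2 fold change in obe2/Df was -0.80 ± 0.20, adjusted p = 0.00845 (limma). mRpL9 had 2104, 1834 and 2364 normalized counts in the OreR libraries, 2333, 1984 and 2309 in the obe1/obe2 libraries and 1128, 1299.6 and 1369.7 in the obe2/Df libraries. Here only the obe2/Df libraries were low, all 3 under every other library, with a log2 fold change of -0.73 ± 0.13, adjusted p = 0.00218 (limma). mRpL34 and mRpL9 are large subunit proteins shared with bacteria. The other 6 were mRpL4 and mRpL45 above, mRpS6 (-0.54), mRpS30 (-0.53), mRpS11 (-0.48) and mRpL44 (-0.42).

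Of these 8 genes mRpS30 had the highest level in OreR, in normalized counts and per kb. mRpS30 had 16019, 15215 and 15262 normalized counts in the OreR libraries, 11830.4, 11971 and 14243 in the obe1/obe2 libraries and 10941, 10939 and 10320.3 in the obe2/Df libraries. Its obe2/Df libraries were below all others, and its log2 fold change was -0.53 ± 0.081, adjusted p = 0.000987 (limma). mRpS6 fell from 2267 ± 245 to 1553 ± 119 normalized counts (SD, n = 3), mRpS11 from 4252 ± 450.1 to 3039.8 ± 271, and mRpL44 from 3829 ± 343 to 2849 ± 187. mRpS6 and mRpS11 are small subunit proteins with bacterial counterparts, and mRpL44 is a mitochondria-specific protein related to the RNase III family.

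In obe1/obe2 embryos, compared with the same OreR libraries, 5 of the 72 genes were higher, 7 lower and 60 not called. Over all tested genes 22.6% were called, 11.0% higher and 11.7% lower, so the members' 16.7% was again not above the background. The median log2 fold change was -0.044, against -0.069 over all tested genes. At least 2-fold higher was 1 gene (mRpS5) and at least 2-fold lower was 1 (mRpL2), against a background of 5.12% and 3.2%. The obe1/obe2 libraries lay entirely above the OreR libraries in 12 members and entirely below in 11, where 17.1% and 20.2% of all tested genes did. With quantile normalization 7 were called higher and 5 lower. The 7 lower genes became 13 without obe1/obe2 replicate 1, and 4 without OreR replicate 1 or without OreR replicate 3. The 5 higher genes became 3 without OreR replicate 3 or without obe1/obe2 replicate 3.

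The largest rise was mRpS5, whose counts stand above, with a 2.39-fold higher level (1.26 ± 0.15, adjusted p = 0.000562, limma). mRpL54, a mitochondria-specific large subunit protein, rose from 2320.0, 2165 and 2565 to 3664, 3847 and 3495 normalized counts (0.64 ± 0.097, adjusted p = 0.00196, limma), and mRpS26, a mitochondria-specific small subunit protein, from 1426, 1409.8 and 1648 to 2266, 1918 and 2502 (0.57 ± 0.12, adjusted p = 0.0114, limma). In these 3 genes the mutant and OreR libraries did not overlap, and all 3 were called higher in obe2/Df as well, where mRpL54 changed by 0.65 and mRpS26 by 0.98. Both comparisons use the same OreR libraries. mRpL48 (0.40 ± 0.098, adjusted p = 0.0194, limma) and mRpL17 (0.33 ± 0.10, adjusted p = 0.0479, limma) were the other 2 that rose. With OreR replicate 3 left out, mRpL48 lost its call (0.39, adjusted p = 0.0564), and the same happened with obe1/obe2 replicate 3 left out (0.37, adjusted p = 0.0678). mRpL17 lost its call when any single library other than obe1/obe2 replicate 2 was left out, with 0.28, adjusted p = 0.148 without obe1/obe2 replicate 3. Both genes share exonic length with a neighbouring gene (20.8% for mRpL48 and 23.6% for mRpL17).

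The largest fall was mRpL2, a core protein near the peptidyl transferase centre. mRpL2 had 2178, 2055 and 1988 normalized counts in the OreR libraries, 922, 834 and 1151 in the obe1/obe2 libraries and 1699, 1651 and 1871 in the obe2/Df libraries. The obe1/obe2 libraries were the lowest 3, and the log2 fold change in obe1/obe2 was -1.11 ± 0.14, adjusted p = 0.000617 (limma). In obe2/Df it was -0.25 ± 0.14, adjusted p = 0.132 and not called. mRpL34 fell in obe1/obe2 too (-0.82 ± 0.20, adjusted p = 0.0195, limma), but not without OreR replicate 1 (-0.74, adjusted p = 0.0734) or OreR replicate 3 (-0.75, adjusted p = 0.0686). mRpL30, a large subunit protein shared with bacteria, stood at 3181, 3127 and 3569 in OreR and 2057, 1915 and 2336 in obe1/obe2 with no overlap (-0.65 ± 0.11, adjusted p = 0.0029, limma). mRpL4 and mRpL45 of the exit tunnel fell in obe1/obe2 (-0.44 ± 0.096, adjusted p = 0.0112, and -0.40 ± 0.087, adjusted p = 0.0118, limma) as in obe2/Df. With quantile normalization the calls in obe1/obe2 of mRpL4 (-0.34, adjusted p = 0.055) and mRpL34 (-0.67, adjusted p = 0.0538) were lost.

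The last 2 lower genes in obe1/obe2 were small changes near the threshold. mRpS30 (-0.29 ± 0.081, adjusted p = 0.0302, limma) lost its call without OreR replicate 1, 2 or 3, obe1/obe2 replicate 1 or 2, or obe2/Df replicate 2, with -0.27, adjusted p = 0.0974 at the weakest. mRpS17 (-0.29 ± 0.081, adjusted p = 0.0326, limma) lost it without OreR replicate 1 or 3, obe1/obe2 replicate 3, or any obe2/Df library, with -0.25, adjusted p = 0.114 without OreR replicate 1. With quantile normalization both calls were lost (-0.24, adjusted p = 0.0516 for mRpS30 and -0.22, adjusted p = 0.149 for mRpS17).

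Within obe1/obe2, replicate 1 differed from replicates 2 and 3 in a group of members. In 11 of the 72 genes (15.3%) replicate 1 was more than 1.5 times both other replicates, a rule chosen after seeing the data. They were mRpL3, mRpL22, mRpL37, mRpL38, mRpL43, mRpL46, mRpL47, mRpS2, mRpS25, mRpS34 and mRpS35, which include the 8 genes at least 2-fold higher in obe2/Df. The same rule held for 824 of the 8346 tested genes (9.87%). All 11 members were called higher in obe2/Df than in OreR, as were 713 of the 824 genes (86.5%). The rule reads the obe1/obe2 libraries and the fold change the other 6, while the estimate of spread uses all 9. In all 8 of the 2-fold genes, replicate 1 was also the highest of the OreR libraries, as it was in 43 of the 72 members.

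Without obe1/obe2 replicate 1, the lower genes in obe1/obe2 came to include mRpL38 (-1.36 ± 0.23, adjusted p = 0.00388, limma), mRpS25 (-1.23 ± 0.25, adjusted p = 0.00848), mRpL43 (-1.15 ± 0.18, adjusted p = 0.003), mRpL22 (-1.14 ± 0.15, adjusted p = 0.00131), mRpL46 (-0.87 ± 0.24, adjusted p = 0.0321), mRpL3 (-0.70 ± 0.12, adjusted p = 0.00475) and mRpS35 (-0.61 ± 0.16, adjusted p = 0.0241). With all libraries none of these 7 was called in obe1/obe2, where their log2 differences ran from -0.94 for mRpS25 to -0.29 for mRpS35. The same 7 genes were called higher in obe2/Df.

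The 8 genes, the 16 early zygotic genes and 8 maternal RNAs that are cleared around this stage were followed by library, as the mean log2 difference from the OreR mean. For the 8 members it was 0.30, -0.11 and -0.20 in the OreR libraries, 0.24, -0.91 and -0.82 in the obe1/obe2 libraries and 1.33, 1.33 and 1.59 in the obe2/Df libraries. For the early zygotic genes it was 0.40, -0.25 and -0.14 in the OreR libraries, -1.21, 0.19 and -0.98 in the obe1/obe2 libraries and -7.45, -2.79 and -3.32 in the obe2/Df libraries. For the maternal RNAs it was -0.045, 0.051 and -0.0058 in the OreR libraries, 0.093, -0.50 and -0.28 in the obe1/obe2 libraries and 0.39, 0.20 and 0.35 in the obe2/Df libraries. The early zygotic genes were low in all 3 obe2/Df libraries, where the 8 members are high by the rule that chose them. In obe1/obe2 the library with the highest members, replicate 1, had the lowest early zygotic genes. Replicate 3 of obe1/obe2, whose early zygotic genes stood at -0.98, had the 8 members at -0.82. Of the 8 maternal RNAs 4 were called higher and 2 lower in obe2/Df. The part of embryo age or of zygotic transcription in the members' differences was not tested.

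**Figure D4:**
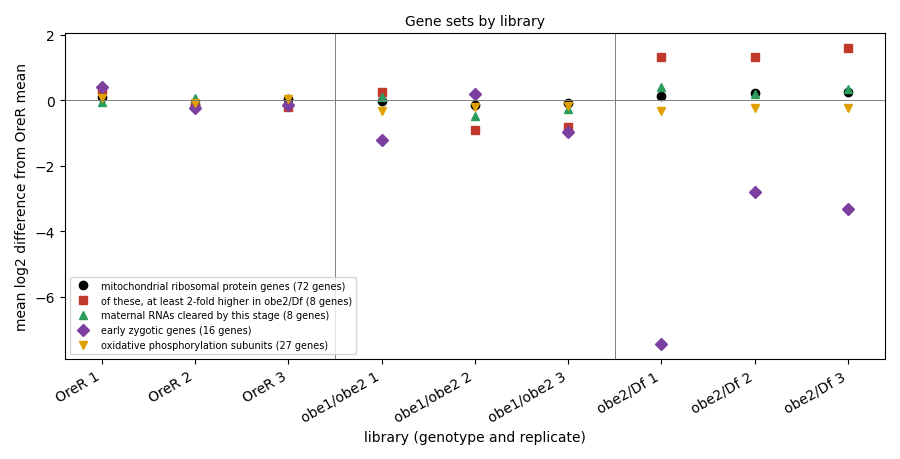
Each point is the mean over a gene set of the log2 difference from the OreR mean in a library (vertical axis), for the 72 genes, the 8 at least 2-fold higher in obe2/Df, the early zygotic, maternal and oxidative phosphorylation genes, with vertical lines between genotypes. The 72 genes stay between -0.15 and 0.25, while the early zygotic genes reach -7.45 in obe2/Df replicate 1.

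Compared directly, obe2/Df embryos had 16 of the 72 genes higher and 2 lower than obe1/obe2 embryos. Over all tested genes 44.7% were called, 25.2% higher and 19.5% lower, against 25%, 22.2% and 2.78% of the members. The share of higher genes was near the background, and the share of lower genes was below it. With quantile normalization, however, 12 were higher and 28 lower, so the low number of falls depends on the scaling. Without obe1/obe2 replicate 1, 6 were lower and 16 higher. The median log2 fold change was 0.011, against -0.033 over all tested genes.

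At least 2-fold higher were 11 members, where 12.8% of all tested genes were, and 0 were at least 2-fold lower, where 4.31% were. The obe2/Df libraries lay entirely above the obe1/obe2 libraries in 26 members and entirely below in 12, against 30.7% and 29.2% of all tested genes. The largest were mRpS25 (2.68 ± 0.30, adjusted p = 0.00115, limma), mRpL38 (2.53 ± 0.42, adjusted p = 0.00278), mRpL47 (1.98 ± 0.42, adjusted p = 0.0062) and mRpL46 (1.95 ± 0.36, adjusted p = 0.00382). They were followed by mRpL43 (1.82), mRpL22 (1.64), mRpS2 (1.54) and mRpL37 (1.42). The obe1/obe2 and obe2/Df libraries did not overlap in any of these 8. For mRpL22 the counts were 1211, 1047 and 987 in the OreR libraries, 967, 547 and 434 in the obe1/obe2 libraries and 1799, 1907 and 2016 in the obe2/Df libraries. mRpL2 was also among the 16 higher genes (0.86 ± 0.14, adjusted p = 0.00265, limma). Of the 2 lower genes, mRpL9 is described next. mRpS30 (-0.24 ± 0.081, adjusted p = 0.0411, limma) lost its call when any single library other than obe1/obe2 replicates 1 and 2 was left out, with -0.21, adjusted p = 0.125 without obe2/Df replicate 3.

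mRpL9 was lower in obe2/Df than in both other groups, with a log2 fold change of -0.80 ± 0.13 against obe1/obe2 (limma adjusted p = 0.00278), and was not called in obe1/obe2 against OreR (0.076 ± 0.13, adjusted p = 0.709). Of the 21 members on arm 3R it is the nearest to obe, 30 protein-coding genes away in the order of the reference annotation, and mRpS10, the next, is 55 away. Of the 29 protein-coding genes between obe and mRpL9, 17 were tested, and 13 were lower and 0 higher in obe2/Df than in OreR, with a median log2 fold change of -1.08. In obe1/obe2 3 of the 17 were lower and 1 higher. Of the 29 genes beyond mRpL9, 25 were tested, with 10 lower and 6 higher in obe2/Df and a median of -0.10. On the far side of obe 10 of 29 were tested, with 3 lower and 4 higher. Over all tested genes 29.5% were lower and 31.0% higher in obe2/Df, and 11.7% and 11.0% in obe1/obe2. These windows were chosen after the values of mRpL9 were seen, and whether the deficiency covers mRpL9 cannot be read from the sources used here. mRpS10 was not called (-0.10).

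The members are spread over 5 arms, with 21 on 3R, 17 on 3L, 12 on 2L, 11 on X and 11 on 2R. In obe2/Df, 8 of the 17 on 3L were higher and 2 lower, 5 and 8 of the 21 on 3R, 1 and 4 of the 12 on 2L, 5 and 2 of the 11 on X, and 4 and 1 of the 11 on 2R, where 31.0% of all tested genes were higher and 29.5% lower. With quantile normalization the counts were 6 higher and 3 lower on 3L, 2 higher and 10 lower on 3R, 1 higher and 6 lower on 2L, 3 higher and 4 lower on X and 3 higher and 5 lower on 2R, so the balance turned on X and 2R. In obe1/obe2, 3 of the 17 on 3L were higher and 1 lower, and 1 and 2 of the 11 on 2R. On 2L 1 of the 12 was higher and 1 lower. On X 0 of the 11 were higher and 2 lower, and on 3R 0 of the 21 were higher and 1 lower. Over all tested genes 11.0% were higher and 11.7% lower in obe1/obe2. No difference between arms was tested.

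The library kit does not mark strand, so reads from overlapping genes cannot be told apart by strand. In the reference annotation 30 members share no exonic base with another gene, 35 share up to 20% of their exonic length and 7 share more: mRpS24, mRpS21, mRpS14, mRpL13, mRpS9, mRpL17 and mRpL48. Among the 30 without overlap 13 were higher and 6 lower in obe2/Df, where 31.0% of all tested genes were higher and 29.5% lower. With quantile normalization 8 of the 30 were higher and 9 lower. The part of exon overlap in the calls was not tested. Some named genes and an overlapping neighbour were called in opposite directions in obe2/Df. mRpS25 shares 6.08% with CG14414, which fell in obe2/Df (-0.94 ± 0.13, adjusted p = 0.000607, limma). mRpS2 shares 6.6% with CG11927, which fell (-0.40 ± 0.081, adjusted p = 0.00325, limma), and mRpL34 shares 9.79% with CG8414, which rose (1.29 ± 0.22, adjusted p = 0.00161, limma). Likewise mRpL47 shares 0.663% with Rlb1, which fell (-0.36 ± 0.12, adjusted p = 0.0289, limma), and mRpS29 shares 4.51% with qkr58E-2, which fell (-0.34 ± 0.081, adjusted p = 0.00664, limma). Pairs called in the same direction occurred too. mRpL30, called lower in obe1/obe2, shares 7.90% with Torsin, which was also called lower there (-0.31 ± 0.093, adjusted p = 0.0445, limma). Torsin fell in obe2/Df as well (-0.51 ± 0.093, adjusted p = 0.00212, limma). In a table the authors deposited, mRpL30 had a fold of 0.748 in obe2/Df, without a call. The pairs named here are examples, and the pairs of each direction are not counted here.

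Some mitochondrial ribosomal proteins carry other names. Of the small subunit genes tko and bonsai, the counterparts of bacterial S12 and S15, tko was not called in obe2/Df (-0.12 ± 0.085, adjusted p = 0.257, limma) and bonsai rose (0.63 ± 0.13, adjusted p = 0.00305, limma). With quantile normalization the 2 gave 1 higher and 1 lower in obe2/Df. In obe1/obe2 neither was called (-0.070 and 0.22). Of 8 tested mitochondrial translation factors 4 were higher and 0 lower in obe2/Df: the release factor mRF1 (CG5705, 0.74), the elongation factor mEFTs (CG6412, 0.46), the elongation factor G gene ico (0.40) and CG4447 (0.27). In obe1/obe2 mRF1 was higher (0.51) and the other 7 were not called. Over all tested genes 31.0% were higher and 29.5% lower in obe2/Df, and 11.0% and 11.7% in obe1/obe2. EfTuM, which brings transfer RNA to the ribosome, was not called in either (-0.085 in obe1/obe2 and 0.046 in obe2/Df). With quantile normalization 3 of the 8 were higher and 1 lower in obe2/Df.

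Genes that copy or transcribe the mitochondrial genome showed 6 higher and 3 lower of 12 tested in obe2/Df, and 4 higher and 1 lower in obe1/obe2. Over all tested genes 31.0% were higher and 29.5% lower in obe2/Df, and 11.0% and 11.7% in obe1/obe2. bsf, a mitochondrial RNA-binding protein that is also known to bind maternal bicoid RNA, rose most (1.98 ± 0.24, adjusted p = 0.000358, limma). The mitochondrial DNA helicase gene CG5924 (1.31), mtSSB (1.23), which binds single-stranded mitochondrial DNA, and the RNA polymerase mtRNApol (0.85) rose too. TFAM, which packages mitochondrial DNA, fell (-0.48), as did mtTFB2 (-0.42) and the protease Lon (-0.40). With quantile normalization 6 higher and 5 lower were called in obe2/Df and 4 higher and 0 lower in obe1/obe2. In obe1/obe2 the higher genes were CG5924 (0.79), mtRNApol (0.73), the polymerase gene tam (0.66) and Suv3 (CG9791, 0.28), and TFAM was lower (-0.27). mtTFB1 was listed at 0 in all libraries. Of 15 listed genes of the mitochondrial genome itself, 0 matched a symbol in the matrix, so they were not analysed here.

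Oxidative phosphorylation uses complexes of which most, but not all, also hold products of mitochondrial translation. Its nuclear genes were lower in both mutant groups than in OreR where they were called. Of 27 tested, 14 were lower and 0 higher in obe2/Df, with a median log2 fold change of -0.32, and 9 were lower and 0 higher in obe1/obe2, with a median of -0.25. The lower genes were 51.9% and 33.3% of the 27, where 29.5% and 11.7% of all tested genes were lower. Higher were 31.0% of all tested genes in obe2/Df and 11.0% in obe1/obe2. With quantile normalization 15 and 4 were lower and 0 higher. In obe2/Df the largest falls were ATPsyn-beta (-0.70 ± 0.15, adjusted p = 0.00376, limma), ND42 (-0.69), ATPsyn-b (-0.64) and ATPsyn-d (-0.52). In obe1/obe2 they were ATPsyn-beta (-1.12 ± 0.15, adjusted p = 0.000895, limma), ATPsyn-b (-0.51), ND42 (-0.49) and blw (-0.45), the alpha subunit of ATP synthase. The 2 comparisons share the OreR libraries. Between the mutant groups, 2 of the 27 were higher and 2 lower in obe2/Df (2 higher and 4 lower with quantile normalization).

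The 88 cytosolic ribosomal protein genes (symbols RpL, RpS or RpLP) were read in the same way. In obe2/Df 2 were higher (2.27%) and 27 lower (30.7%), with a median log2 fold change of -0.18. Over all tested genes 31.0% were higher and 29.5% lower, so the share of lower genes was near the background. In obe1/obe2 0 were higher and 15 lower (17.0%), with a median of -0.083. There 11.0% of all tested genes were higher and 11.7% lower. The direction depended on the scaling: with quantile normalization 11 were higher and 17 lower in obe2/Df, with a median of 0.059. No difference between the 2 families was tested.

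The authors' deposited table for obe2/Df called 5 of the 72 genes at an adjusted p under 0.05, all higher: mRpS25 with a fold of 3.34 (adjusted p = 0.00406 in the authors' deposited table), mRpL38 with 3.21, mRpS2 with 2.79, mRpL46 with 2.8 and mRpL37 with 2.47. All 5 are among the 8 genes at least 2-fold higher in the limma test. Over all genes the authors' deposited table called 853 higher and 706 lower of 12280 with a p-value. For obe1/obe2 the authors' deposited table called 0 of the 72 genes, and 295 higher and 230 lower of 12504. At an unadjusted p under 0.05, limma gave 22 of the 72 genes in obe1/obe2, 43 in obe2/Df and 23 between the mutant groups. The share of all tested genes at that threshold is not given here, so these 3 counts are not a result about the members. In the authors' deposited table for obe1/obe2, mRpS5 had a fold of 2.34 with an adjusted p of 0.11 and mRpL2 a fold of 0.467 with an adjusted p of 0.232.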

How the data were processed

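RNA of 9 libraries was measured by sequencing. TruSeq v2 libraries, which do not mark strand, were made from Trizol-extracted RNA and run on a HiSeq2500, per the labels' protocols. The submitters' processing notes list genome build dm3 and the tools STAR, Cuffdiff and Cufflinks 2.1.1, with no role given. The sources used here do not name the annotation. The deposited matrix holds signal values, which the steps between its values show to be gene read counts divided by a size factor in each library. For each mutant group the authors also deposited a table against OreR, with a fold (the ratio of group means), a p-value and its adjusted form.

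Dividing each library by the value of 1 read recovered whole reads for 100% of the values deposited, within 0.001 of a read. Chi-square values per degree of freedom between replicates were 49.7 to 281, so each library was counted. Genes with a mean of at least 10 entered a single limma fit (version 3.58.1, R 4.3.3) of all 3 groups with a trended variance, on the log2(normalized count + 1) scale, two-sided, with Benjamini-Hochberg adjustment over 8346 genes. The fit was checked on simulated data. Members matched the BDGP6 annotation by symbol (73 of 73), which gave exonic lengths, arms and gene order. Its build is not the authors', so no positions are given and no sequence was used here.

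The members, roles and lists were chosen with earlier results of these data known. Named are the 8 largest called rises and falls per comparison, the 4 highest and lowest genes per kb, the members with a role and up to 4 called genes of each other list. Other names were chosen after their values were seen. Alternatives were TMM factors, quantile normalization, a pseudocount of 0.5 or 5, the filter removed or raised to a mean of 50, a replicate block, fits of 6 libraries, leaving out each library, and edgeR 4.0.16 and DESeq2 1.42.0 on the recovered reads. edgeR called 1811, 4984 and 3674 genes in the 3 comparisons, and limma 1889, 5050.0 and 3730.0. Figures were drawn with Python 3.11.15.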

Additional observations from a re-analysis of the deposited data

How the results depend on the processing

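Of 38 named changes under 19 alternatives, 674 of 722 values kept their direction and call, 48 kept their direction but missed the threshold, and 0 reversed. The changes past the threshold under every alternative numbered 30. Calls were lost for 6 changes in obe1/obe2 against OreR, 1 in obe2/Df against OreR and 1 between the mutant groups, the cause of which was not tested. Quantile normalization moved the median log2 fold change of the 72 genes to 0.040 in obe1/obe2, -0.21 in obe2/Df and -0.26 between the mutant groups, where it called 40 genes in place of 18. DESeq2 on the recovered reads called 19 genes in obe1/obe2 in place of 12, 43 in obe2/Df and 24 between the mutant groups, and edgeR 12, 39 and 17. Leaving out 1 library gave 7 to 18 called genes in obe1/obe2, 29 to 42 in obe2/Df and 14 to 22 between the mutant groups, with medians from -0.11 to -0.0048, -0.034 to 0.070 and -0.012 to 0.071. The 7 calls in obe1/obe2 were left without OreR replicate 3, and the median of 0.071 between the mutant groups was reached without obe2/Df replicate 1. The cause of these shifts was not tested. The replicate numbers did not pair the libraries throughout: same-numbered libraries of different groups had deviations that correlated at -0.20 to 0.52, and not every library correlated best with its own number. Between the mutant groups, replicates 1 correlated at 0.52, replicates 2 at 0.38 and replicates 3 at 0.005. Whether some of these libraries shared a batch was not tested. With a replicate block 9 genes were called in obe1/obe2, 36 in obe2/Df and 17 between the mutant groups. In obe2/Df the block left mRpL1, mRpL11 and mRpL27 uncalled (adjusted p = 0.0936, 0.0698 and 0.0752, limma), as did removing the filter (0.0841, 0.0556 and 0.062). Depth limits mRpL47 most among the 72 genes, with 16.5 to 118 normalized counts over the 9 libraries. The 0 of mRpL53, whose exonic length is all shared with other genes, cannot be read as a limit of depth.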
